A study of Homo sapiens with 12 samples.

Results

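The 10 genes described here encode the core of the cytosolic heat shock chaperone machinery, followed in the Caco-2 line, which came from a human colorectal adenocarcinoma and resembles intestinal epithelium, grown with or without bafilomycin A1 in rich or depleted medium. They were chosen by name: the HSP90 genes HSP90AA1 and HSP90AB1, the HSP70 genes HSPA8, HSPA1A and HSPA1B, the HSP110 genes HSPA4L and HSPH1, the J-domain genes DNAJA1 and DNAJB1, and the small heat shock gene HSPB1. All 10 were present among the 54553 genes of each library, and all 10 were among the 18047 genes that passed the filter on low counts. All 12 libraries came from 1 wild-type line, so the differences describe that line only. Rich medium was EMEM with 1 g/L glucose, 2 mM glutamine and 20% serum. Depleted medium was DMEM with 0.1 g/L glucose, 0.2 mM glutamine and 1% serum, given for 48 h, so base medium, glucose, glutamine and serum changed together and cannot be told apart. Pyruvate, non-essential amino acids and antibiotics were in both media. Sub-confluent cells in either medium were given vehicle or bafilomycin A1 at 100 nM for 48 h, a drug that blocks the vacuolar ATPase and so raises lysosomal pH, with 3 libraries in each of the 4 groups.

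Cytosolic chaperones work as a relay. HSP70 proteins bind exposed stretches of unfolded clients and cycle with ATP; J-domain proteins deliver the clients and trigger ATP hydrolysis, and HSP110 proteins act as nucleotide exchange factors that reset the cycle. Many clients, among them kinases and steroid receptors, then pass to HSP90 through the adaptor STIP1, while small heat shock proteins such as HSPB1 hold unfolded proteins without using ATP. Under proteotoxic stress the transcription factor HSF1 binds heat shock elements, inverted repeats of a short GAA unit, in the promoters of many of these genes. Some of the machinery, such as HSPA8 and HSP90AB1, is made at high levels without stress, whereas HSPA1A and HSPA1B are the classical stress-inducible HSP70 genes.

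The promoters of the 10 genes were read from RefSeq (GRCh38.p14), each from 250 bases before to 50 bases after the listed start site, and searched on both strands for heat shock elements. The motifs were 2 units (GAANNTTC or TTCNNGAA) or 3 units (GAANNTTCNNGAA or TTCNNGAANNTTC), and every match to 3 units also holds matches to 2 units. A match to 3 units was present in 2 of the 10 promoters, against 0.490% of all 35116 promoters, and a match to 2 units in 5 of the 10, against 13.5% of all promoters. The matches that carry these counts are shown here 5′ to 3′ on the gene's own strand, with the motif in capitals. HSPA1A lies at chr6:31815417-31815464 (plus strand), HSPA1B at chr6:31827613-31827660 (plus), the far HSPA8 match at chr11:123062334-123062386 (minus), the near HSPA8 match at chr11:123062159-123062211 (minus), DNAJA1 at chr9:33025266-33025298 (plus) and HSPB1 at chr7:76302471-76302518 (plus).
HSPA1A: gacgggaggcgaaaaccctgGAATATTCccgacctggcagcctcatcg
HSPA1B: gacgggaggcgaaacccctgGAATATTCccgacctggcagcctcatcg
HSPA8, far: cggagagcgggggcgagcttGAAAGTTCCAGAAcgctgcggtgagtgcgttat
HSPA8, near: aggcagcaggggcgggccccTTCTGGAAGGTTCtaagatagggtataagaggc
DNAJA1: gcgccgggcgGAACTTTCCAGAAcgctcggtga
HSPB1: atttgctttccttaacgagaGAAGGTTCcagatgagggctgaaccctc
HSPA8 held 2 matches to 3 units, which began 230 and 55 bases before the start site. The DNAJA1 match to 3 units began 4 bases after its start site, and DNAJA1 held another match to 2 units 198 bases before it. The HSPA1A and HSPA1B windows, 48 bases each, differed at 1 position outside the motif. The windows of HSP90AA1, HSP90AB1, HSPA4L, HSPH1 and DNAJB1 held no match to these letters. Only 1 start site per gene was searched, and elements further away or with other spacing were not looked for. The DNAJB1 window (19:14529222-14529521, minus strand) lay inside the listed gene span, not at its upstream end. The HSP90AA1 window (14:102139700-102139999, minus strand) lay at the upstream end of a long gene span. Any other start site of these genes was not searched, so no match here does not mean that they lack an element.

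**Figure D1:**
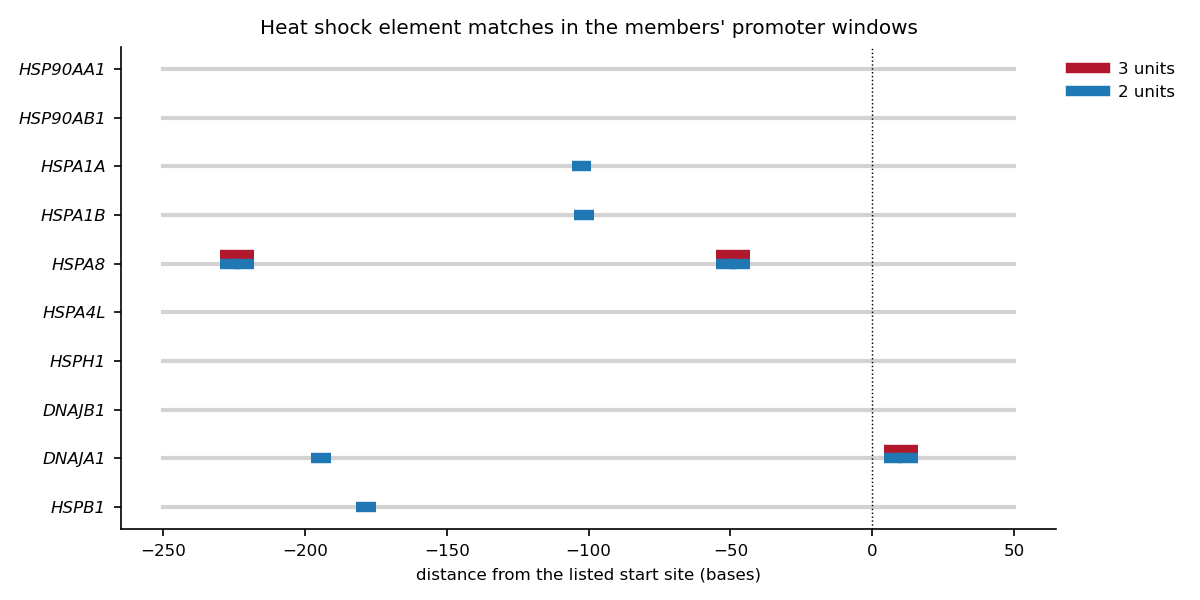
Heat shock element matches in the promoter windows of the 10 genes. The horizontal axis is the distance in bases from the listed start site (dotted line), grey lines are the windows searched, and blocks mark matches to 2 units (blue) or 3 units (red); HSPA8 and DNAJA1 alone among the 10 carry red blocks.

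The libraries held between 12969814 and 51649213 estimated read counts. Replicate 1 of the rich vehicle group was the shallowest by far, and the next shallowest library held 33859998. Levels are given as CPM (read counts scaled to a common library total) after the TMM scaling of edgeR, and a gene is said to be called, to rise or to fall where edgeR's quasi-likelihood test gave a Benjamini-Hochberg adjusted p under 0.05 over all 18047 genes. The labels do not say that replicates were separate cultures, so the p-values measure the spread between these libraries, which may be technical. Replicate 3 of the rich bafilomycin group stood apart: its closest library by rank correlation was replicate 3 of the depleted vehicle group (rho 0.990), above its best match in its own group (0.985). Replicates 2 and 3 of rich vehicle were also closest to a rich bafilomycin library (0.9786 and 0.9785), narrowly above their own group (0.9782). The best own-group rho was 0.967 to 0.978 in rich vehicle, the control of both main comparisons, and 0.985 or more in the other groups. Each result that rests on replicate 3 of rich bafilomycin, or on the shallow library, is also given without them where that ends a call. Of 10 intestinal epithelial markers, 10 had reads in the rich vehicle group and 9 in each other group, where CDX1 was at 0. Their summed level ran from 6919 to 9590 CPM with rich medium and vehicle, 5537 to 7097 with rich medium and bafilomycin, 4697 to 5785 with depleted medium and vehicle, and 2870 to 3427 with depleted medium and bafilomycin. Summed fibroblast markers were at 164 to 333, 105 to 181, 73.0 to 116 and 58.2 to 94.7 CPM in the same order of groups. Each group overlapped the next. All 4 fibroblast markers were detected, with most of the sum from PDGFRA and COL1A1. Leukocyte markers summed to 7.79 CPM at most and endothelial markers to 14.1 CPM at most. The part of these marker levels in the chaperone results was not tested, and in these bulk samples fewer cells of a type and less RNA per cell cannot be told apart.

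The chaperone mRNA pool was largest in rich medium with vehicle. The 10 genes together reached 5894 to 6441 CPM there. They reached 3138 to 3762 CPM with bafilomycin in rich medium, 2932 to 3186 CPM in depleted medium with vehicle and 2243 to 2555 CPM with both treatments. On the CPM scale the rich vehicle libraries lay apart from all others, and the libraries with both treatments lay below all others. On the deposited TPM scale, which corrects for transcript length and so allows genes to be compared within a library, HSPA8, HSP90AB1 and HSP90AA1 made up 87.9% ± 0.821 of the 10 genes' TPM in rich medium with vehicle (SD, n = 3). HSPA8 alone gave 44.0% ± 1.82, HSP90AB1 26.2% ± 3.48 and HSP90AA1 17.8% ± 1.14 (SD, n = 3), while HSPA4L gave only 0.184% ± 0.0157. Summed TPM of the 10 genes was also highest in rich vehicle (2152 to 4511). By TPM, however, both treatments (1121 to 1454) overlapped depleted vehicle (1262 to 1501) and rich bafilomycin (1369 to 1872). TPM is a share within each library. Genes under 200 bases took 24.2% of it in replicate 2 of depleted vehicle (the 1262) and 2.88% to 8.02% in the others. The part of this in the TPM levels was not tested.

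**Figure D2:**
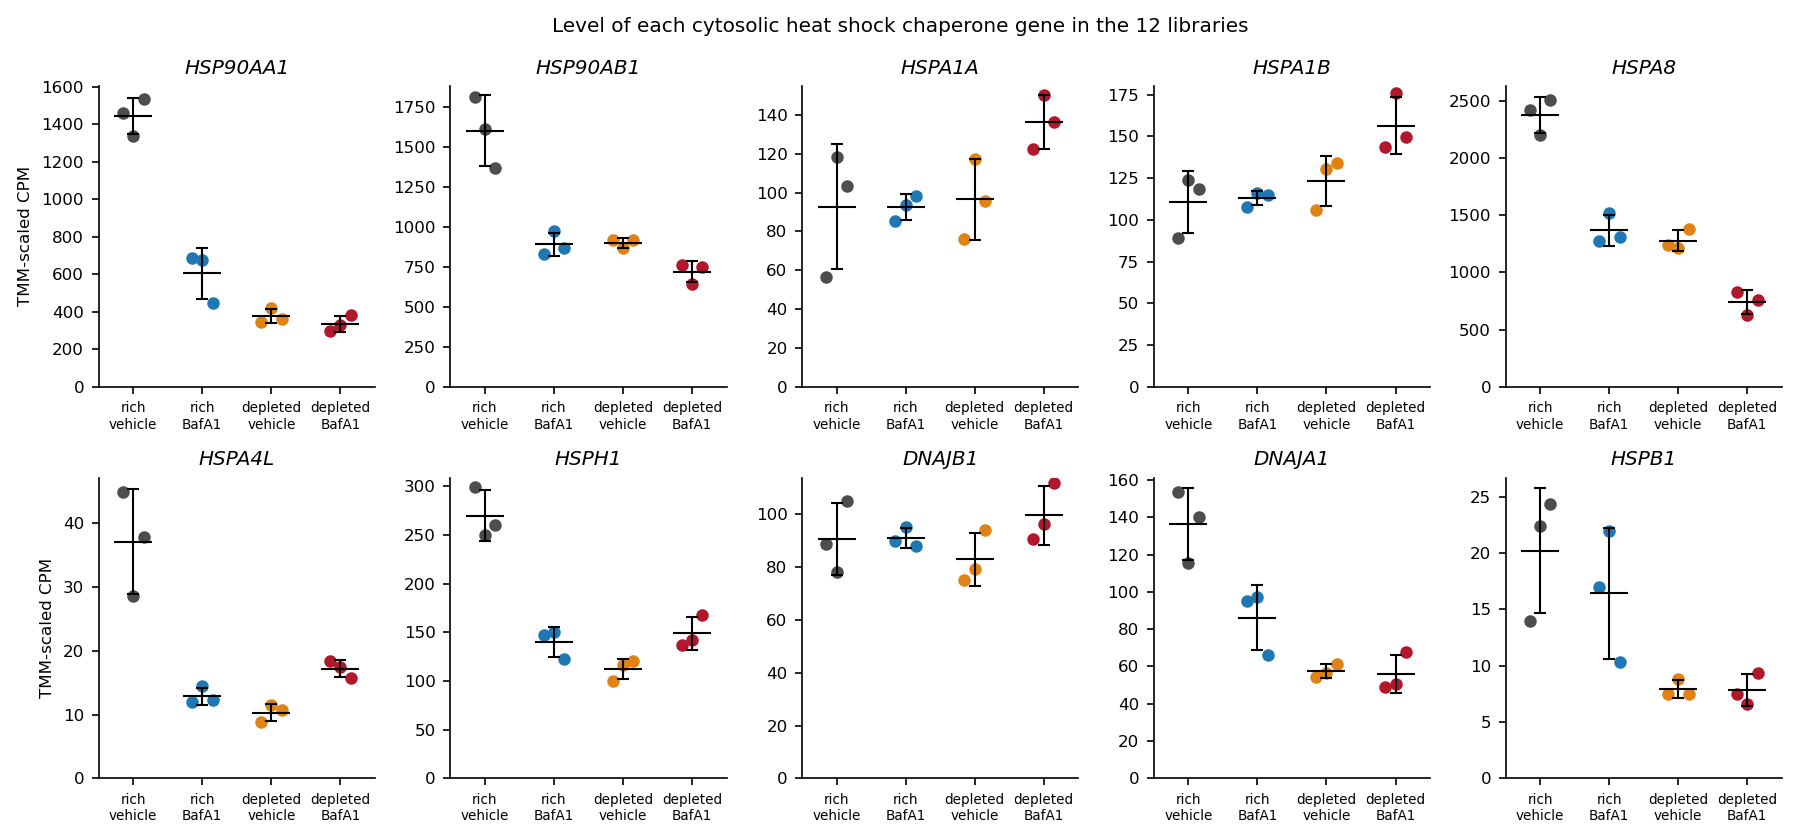
TMM-scaled CPM of each of the 10 genes in the 12 libraries, on linear axes that start at 0, by group (rich vehicle, rich bafilomycin, depleted vehicle, depleted bafilomycin). Points are libraries, horizontal lines are means and bars are SDs (n = 3); HSP90AA1 runs from 1339 to 1532 CPM in rich vehicle and from 295 to 418 CPM in the depleted groups, while DNAJB1 overlaps in all 4 groups.

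The HSP90 genes encode the ATP-driven chaperone that finishes the folding of kinases and receptors; HSP90AA1 encodes the stress-inducible alpha form and HSP90AB1 the constitutive beta form. HSP90AA1 (14:102080742-102139749) measured 1459, 1339 and 1532 CPM in the 3 rich vehicle libraries and 688, 677 and 447 CPM with bafilomycin in rich medium. In depleted medium it measured 348, 418 and 363 CPM with vehicle and 295, 330 and 382 CPM with bafilomycin. By CPM the rich vehicle libraries lay above the rich bafilomycin libraries, these lay above both depleted groups, and the depleted groups overlapped. By TPM the rich bafilomycin libraries (147 to 256) overlapped those with both treatments (127 to 155). HSP90AA1 fell 2.39-fold with bafilomycin in rich medium (log2 fold change -1.26, SE 0.19, adjusted p = 0.00144) and 3.84-fold with depletion under vehicle (-1.94, SE 0.20, adjusted p = 2.15e-05). These 2 comparisons share the rich vehicle libraries as controls, here and for every gene that follows. In depleted medium bafilomycin gave -0.16 (SE 0.19, adjusted p = 0.65, 95% interval -0.57 to 0.24), and under bafilomycin depletion gave -0.85 (SE 0.19, adjusted p = 0.00528).

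HSP90AB1 (6:44246194-44253883) measured 1818, 1617 and 1374 CPM in rich medium with vehicle and 830, 974 and 871 CPM with bafilomycin. It measured 920, 867 and 921 CPM in depleted medium with vehicle and 763, 645 and 751 CPM with both treatments. Either treatment alone gave a similar level, with overlapping libraries, and the libraries with both treatments lay below these on the CPM scale. By TPM both treatments (330 to 443) overlapped depletion alone (354 to 457) and bafilomycin alone (371 to 474). The fall with bafilomycin in rich medium was 1.80-fold (log2 -0.85, SE 0.17, adjusted p = 0.00673), and that with depletion under vehicle was 1.78-fold (log2 -0.83, SE 0.17, adjusted p = 0.00227). The first of these calls was lost in a fit of the 6 rich libraries alone (adjusted p = 0.0757) and when the shallow library and the library that stood apart were both left out (0.0507). The second treatment added a difference that was not called, -0.33 (adjusted p = 0.249) for bafilomycin in depleted medium and -0.31 (adjusted p = 0.214) for depletion under bafilomycin, although the libraries did not overlap in either.

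The make-up of the HSP90 pool also differed between media. The TPM ratio of HSP90AA1 to HSP90AB1 within a library was 0.590 to 0.859 in rich medium with vehicle and 0.396 to 0.626 with bafilomycin, which overlap. It was 0.291 to 0.366 in depleted medium with vehicle and 0.299 to 0.389 with both treatments, below every rich library. These ratios are descriptions with no test. HSP90AA1 overlaps 197 bases of WDR20 on the opposite strand in the annotation, and the strand setting of the counting is not given in the sources used here.

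HSPA8, the constitutive HSP70 (HSC70), also takes part in lysosomal uptake of proteins by chaperone-mediated autophagy and in uncoating clathrin vesicles. HSPA8 (11:123057489-123062462) measured 2417, 2201 and 2507 CPM in rich medium with vehicle and 1270, 1522 and 1307 CPM with bafilomycin. It measured 1236, 1215 and 1379 CPM in depleted medium with vehicle and 828, 629 and 763 CPM with both treatments. Thus the rich vehicle libraries were highest, either treatment alone gave overlapping values, and both treatments together gave the lowest values. HSPA8 fell 1.74-fold with bafilomycin in rich medium (log2 -0.80, SE 0.18, adjusted p = 0.0118) and 1.72-fold with bafilomycin in depleted medium (log2 -0.79, SE 0.18, adjusted p = 0.0116). It fell 1.86-fold with depletion under vehicle (log2 -0.90, SE 0.18, adjusted p = 0.00182) and 1.85-fold with depletion under bafilomycin (log2 -0.88, SE 0.18, adjusted p = 0.00271). HSPA8 was the only one of the 10 genes called lower in all 4 comparisons. Its bafilomycin responses in the 2 media differed by 0.01 (SE 0.25, adjusted p = 0.985, 95% interval -0.53 to 0.55). The rich bafilomycin call was lost without replicate 1 of that group (adjusted p = 0.06), in the 6 rich libraries alone (0.0983) and without both doubtful libraries (0.066). The depleted bafilomycin call was lost without replicate 3 of depleted vehicle (0.0572) or without replicate 2 (0.0712) or 3 (0.0509) of depleted bafilomycin. The 3 snoRNA genes SNORD14C, SNORD14D and SNORD14E lie within HSPA8 on the same strand.

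HSPA1A (6:31815543-31817942) and HSPA1B (6:31827738-31830254) are neighbouring genes for nearly the same stress-inducible HSP70 protein, and neither passed the test with bafilomycin in rich medium or with depletion under vehicle. HSPA1A measured 56.6, 118 and 103 CPM in rich medium with vehicle, 85.2, 93.5 and 98.5 CPM with bafilomycin, 76.3, 118 and 95.5 CPM in depleted medium with vehicle, and 122, 150 and 137 CPM with both treatments. HSPA1B measured 89.4, 124 and 118 CPM, 108, 116 and 115 CPM, 106, 130 and 134 CPM, and 144, 176 and 150 CPM in the same 4 groups. For both genes the libraries with both treatments lay above all others by CPM, and the other 3 groups overlapped. By TPM both treatments overlapped rich vehicle in both genes. HSPA1B gave 67.4 to 114 TPM with both treatments and 41.4 to 81.8 TPM in rich vehicle. In rich medium the response to bafilomycin was -0.01 for HSPA1A (95% interval -0.49 to 0.47, adjusted p = 0.987) and 0.03 for HSPA1B (-0.31 to 0.37, adjusted p = 0.927). The intervals for depletion under vehicle were of like width, -0.42 to 0.53 for HSPA1A and -0.18 to 0.49 for HSPA1B.

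Bafilomycin in depleted medium gave 0.50 for HSPA1A (SE 0.22, adjusted p = 0.172) and 0.34 for HSPA1B (SE 0.16, adjusted p = 0.18), neither called. The HSPA1A difference was called in the 6 depleted libraries alone (0.0416) and without both doubtful libraries (0.0463). Depletion under bafilomycin gave 0.56 for HSPA1A (SE 0.22, adjusted p = 0.0835) and 0.47 for HSPA1B (SE 0.16, adjusted p = 0.0407), so only HSPA1B was called higher. The 2 transcripts share 73.6% of the 31-base words of HSPA1A and 73.1% of those of HSPA1B, and their estimated counts were not whole in all 12 libraries, so reads were split between them. Summed as 1 gene, they gave 0.51 (SE 0.19, adjusted p = 0.0615) for depletion under bafilomycin and 0.41 (SE 0.19, adjusted p = 0.179) for bafilomycin in depleted medium, neither called. The HSPA1B call was also lost without any 1 of the 6 libraries compared (adjusted p from 0.0577 to 0.173). The HSPA1A difference under depletion and bafilomycin was instead called in the 6 bafilomycin libraries alone (adjusted p = 0.00557) and without both doubtful libraries (0.0217).

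The balance between inducible and constitutive HSP70 transcripts differed between groups. Summed HSPA1A and HSPA1B TPM equalled 8.06% ± 2.22 of HSPA8 in rich medium with vehicle and 13.9% ± 1.21 with bafilomycin (SD, n = 3). It equalled 16.1% ± 2.88 in depleted medium with vehicle and 38.4% ± 10.2 with both treatments (SD, n = 3). The lowest library with both treatments was at 30.3%, above the highest of any other group (19.3%). The pair alone was at 79.4 to 164 TPM in rich vehicle, 94.3 to 106 in rich bafilomycin and 95.1 to 108 in depleted vehicle. With both treatments it was at 132 to 217 TPM, which overlaps rich vehicle. Mean HSPA8 TPM in the 4 groups was 1510, 727, 638 and 452, so the ratio also reflects lower HSPA8. Within the pair, HSPA1A took 38.8% to 48.8% of the reads over all 12 libraries.

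**Figure D3:**
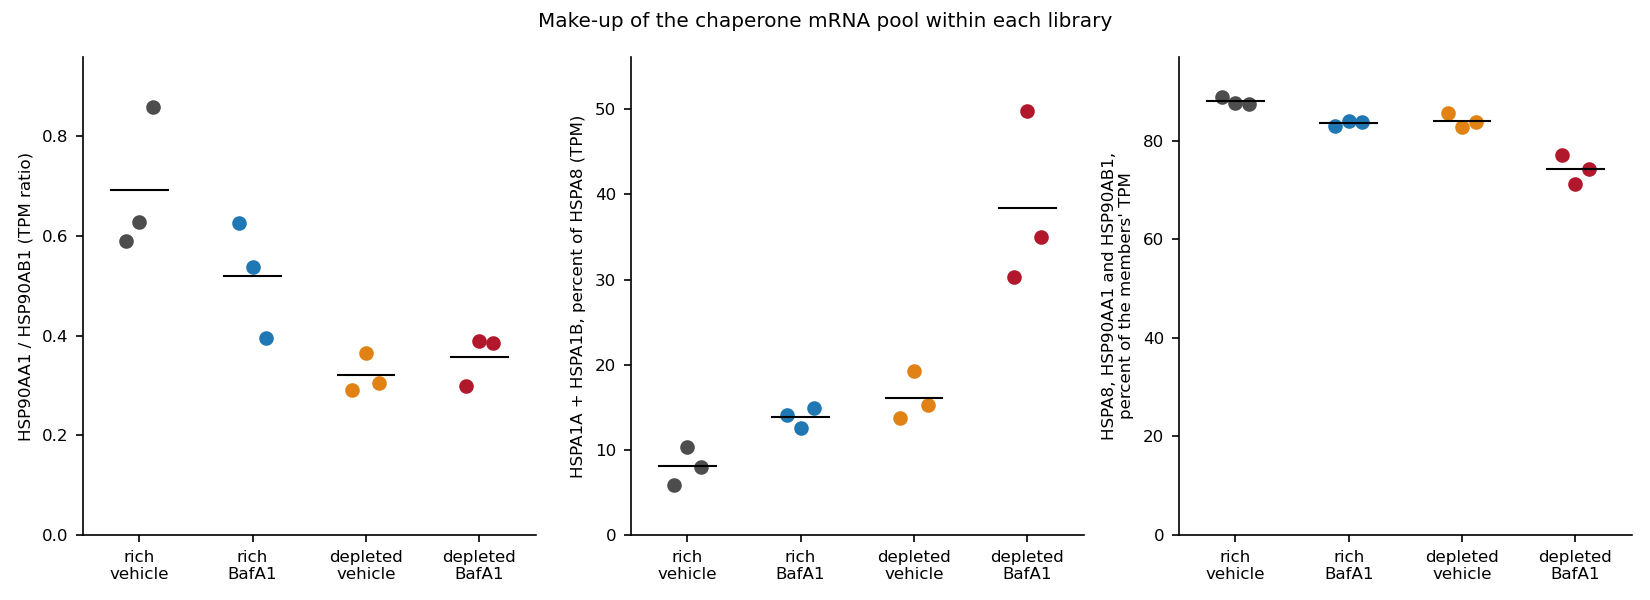
Make-up of the chaperone mRNA pool in each library, from deposited TPM: the HSP90AA1 to HSP90AB1 ratio, summed HSPA1A and HSPA1B as a percent of HSPA8, and the share of HSPA8, HSP90AA1 and HSP90AB1 among the 10 genes in percent. Points are the 3 libraries of a group and lines are means; the inducible pair is at 30.3% to 49.8% of HSPA8 with both treatments, against 5.87% to 19.3% elsewhere.

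The HSP110 genes HSPA4L and HSPH1 encode nucleotide exchange factors of HSP70, and for both the response to bafilomycin differed between media (tested below as an interaction). HSPA4L (4:127781796-127840733) measured 44.9, 28.6 and 37.9 CPM in rich medium with vehicle and 11.9, 14.4 and 12.2 CPM with bafilomycin. It measured 8.76, 11.4 and 10.7 CPM in depleted medium with vehicle and 18.5, 17.4 and 15.7 CPM with both treatments. By CPM the 4 groups did not overlap: rich vehicle was highest, then both treatments, then bafilomycin alone, then depletion alone. By TPM both treatments (2.204 to 3.647) overlapped bafilomycin alone (1.865 to 2.229). HSPA4L fell 2.88-fold with bafilomycin in rich medium (log2 -1.53, SE 0.19, adjusted p = 0.000384) and 3.60-fold with depletion under vehicle (log2 -1.85, SE 0.19, adjusted p = 2.38e-05). In depleted medium it rose 1.67-fold with bafilomycin (log2 0.74, SE 0.19, adjusted p = 0.0191). The last call was lost without replicate 1 of depleted vehicle (adjusted p = 0.106) or without replicate 1 (0.0659) or 2 (0.0636) of depleted bafilomycin. Depletion under bafilomycin gave 0.42 (SE 0.19, adjusted p = 0.118), which was called only in the 6 bafilomycin libraries alone (0.0469).

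HSPH1 (13:31134973-31162388) encodes HSP105, and by TPM it took 2.57% to 4.33% of the 10 genes' total as group means, against 0.116% to 0.234% for HSPA4L. It measured 299, 250 and 260 CPM in rich medium with vehicle and 147, 150 and 122 CPM with bafilomycin. It measured 100.3, 117 and 120 CPM in depleted medium with vehicle and 137, 142 and 168 CPM with both treatments. The fall with bafilomycin in rich medium was 1.93-fold (log2 -0.95, SE 0.15, adjusted p = 0.00185) and that with depletion under vehicle was 2.40-fold (log2 -1.26, SE 0.15, adjusted p = 5.71e-05). In depleted medium bafilomycin gave 0.41 (SE 0.15, adjusted p = 0.0977), with all 3 treated libraries above all 3 vehicle libraries but no call. That difference was called in the 6 depleted libraries alone (0.0393) and without both doubtful libraries (0.0446).

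Of the J-domain genes, DNAJA1 passed the test in 3 comparisons and DNAJB1 in none. DNAJA1 (9:33025273-33039907), a farnesylated partner of HSPA8, measured 154, 116 and 140.0 CPM in rich medium with vehicle and 95.3, 97.1 and 66.4 CPM with bafilomycin. It measured 54.3, 56.7 and 61.5 CPM in depleted medium with vehicle and 49.2, 50.7 and 67.7 CPM with both treatments. It fell 1.58-fold with bafilomycin in rich medium (log2 -0.66, SE 0.18, adjusted p = 0.0287) and 2.37-fold with depletion under vehicle (log2 -1.25, SE 0.18, adjusted p = 0.000172). The first call was lost without replicate 1 (0.0802) or 3 (0.0505) of rich vehicle, without replicate 1 (0.0509) or 3 (0.126) of rich bafilomycin, in the 6 rich libraries alone (0.104) and without both doubtful libraries (log2 -0.41, 0.201). Depletion under bafilomycin gave -0.63 (SE 0.18, adjusted p = 0.0188), a call with overlapping libraries that was lost without any of 4 of the 6 libraries: replicates 1 and 2 of rich bafilomycin (0.0855 and 0.0954) and replicates 1 and 2 of depleted bafilomycin (0.0828 and 0.0871).

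DNAJB1 (19:14514769-14560391), the HSP40 that works with the inducible HSP70 proteins, was not called by edgeR in any comparison, and its unadjusted p was 0.099 or more in each. It measured 88.7, 78.3 and 105 CPM in rich medium with vehicle, 89.9, 95.2 and 88.0 CPM with bafilomycin, 75.3, 79.4 and 94.3 CPM in depleted medium with vehicle, and 90.7, 96.2 and 112 CPM with both treatments. All 4 groups overlapped with their neighbours in level. The 95% interval was -0.31 to 0.32 for bafilomycin in rich medium and -0.45 to 0.19 for depletion under vehicle. DNAJB1 overlaps 12686 bases of TECR on the opposite strand, so its level is uncertain if strand was not used in counting.

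HSPB1 (7:76302673-76304292), the holdase HSP27, measured 13.9, 22.4 and 24.3 CPM in rich medium with vehicle and 17.0, 21.9 and 10.4 CPM with bafilomycin, which overlap. It measured 7.48, 8.85 and 7.52 CPM in depleted medium with vehicle and 7.51, 6.60 and 9.39 CPM with both treatments, below all rich libraries. Depletion lowered it 2.55-fold under vehicle (log2 -1.35, SE 0.27, adjusted p = 0.00167) and 2.10-fold under bafilomycin (log2 -1.07, SE 0.27, adjusted p = 0.00933). The latter call was lost without replicate 2 of rich bafilomycin (log2 -0.81, 0.0718) or of depleted bafilomycin (0.051). Bafilomycin gave -0.31 in rich medium (95% interval -0.87 to 0.26, adjusted p = 0.497) and -0.02 in depleted medium (-0.59 to 0.55, adjusted p = 0.973).

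Counted over the 10 genes, bafilomycin in rich medium lowered 6 (HSP90AA1, HSP90AB1, HSPA8, HSPA4L, HSPH1 and DNAJA1) and raised 0, by edgeR, by DESeq2 and at an unadjusted p under 0.05. Of all genes tested, 4.78% were called lower and 6.15% higher in that comparison. The median log2 fold change was -0.73 for the 10 genes and 0.02 for all genes. Only 3 of the 6 were still called without both doubtful libraries (HSP90AA1, HSPA4L and HSPH1). Depletion under vehicle lowered 7, the same 6 and HSPB1, and raised 0 by the same 3 measures, where 15.4% of all genes were called lower and 15.5% higher. Of all calls there 50.2% were higher, or 60.8% with library totals in place of TMM. Its median was -1.07 for the 10 genes and 0.04 for all genes, and the 7 calls were kept without any single library and without both doubtful libraries.

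In depleted medium bafilomycin raised 1 of the 10 (HSPA4L) and lowered 1 (HSPA8), where 5.5% of all genes were called higher and 5.91% lower. DESeq2 also called 1 higher and 1 lower, 4 were higher and 1 lower at an unadjusted p under 0.05, and 3 were called higher without both doubtful libraries. The median was 0.12 for the 10 genes and -0.03 for all genes. Depletion under bafilomycin lowered 4 (HSP90AA1, HSPA8, DNAJA1 and HSPB1) and raised 1 (HSPA1B), where 13.6% of all genes were called lower and 10.5% higher. Of all calls there 43.5% were higher, or 54.5% with library totals. DESeq2 also called 4 lower and 1 higher, and at an unadjusted p under 0.05 there were 4 lower and 3 higher. The median there was -0.11 for the 10 genes and 0.01 for all genes.

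**Figure D4:**
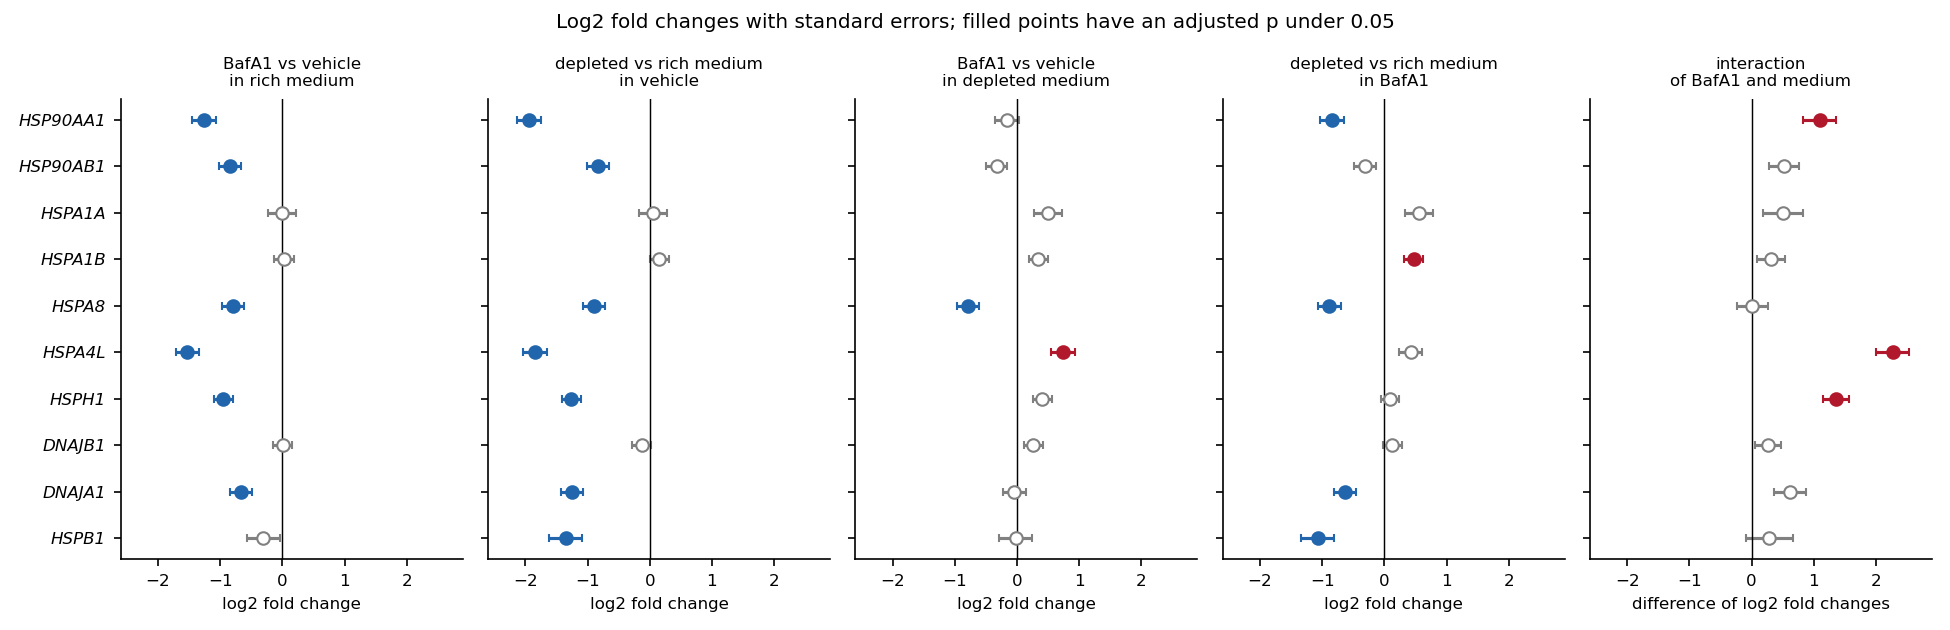
Log2 fold changes of the 10 genes in the 4 pairwise comparisons and, in the last panel, the difference between the bafilomycin responses in depleted and rich medium (also log2). Bars are standard errors and filled points have an adjusted p under 0.05 (blue lower, red higher); bafilomycin in rich medium has 6 blue points and depletion under vehicle has 7.

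The difference between the bafilomycin responses in depleted and rich medium was tested directly as an interaction. Of all genes, 2.35% had a higher response in depleted medium and 3.83% a lower one, against 3 and 0 of the 10 chaperone genes by edgeR (3 and 0 by DESeq2, 5 and 0 at an unadjusted p under 0.05). The median difference was 0.51 for the 10 genes and -0.05 for all genes. HSPA4L had the widest gap, 2.27 (SE 0.27, adjusted p = 0.00133), from a fall in rich medium to a rise in depleted medium. HSPH1 differed by 1.35 (SE 0.21, adjusted p = 0.00482) and HSP90AA1 by 1.09 (SE 0.27, adjusted p = 0.0296). The HSPA4L and HSPH1 calls held in each alternative run, including without each library in turn and without both doubtful libraries. The HSP90AA1 call was lost without replicate 3 of rich bafilomycin (0.91, adjusted p = 0.0593), without both doubtful libraries (0.91, 0.0606), without replicate 1 (0.0922) or 3 (0.0715) of depleted vehicle, without replicate 2 (0.0678) or 3 (0.0893) of depleted bafilomycin, and against a minimum fold of 1.5 (0.245). For HSP90AB1 the difference was 0.52 (SE 0.24, adjusted p = 0.221) and for DNAJA1 0.62 (SE 0.25, adjusted p = 0.158), neither called.

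**Figure D5:**
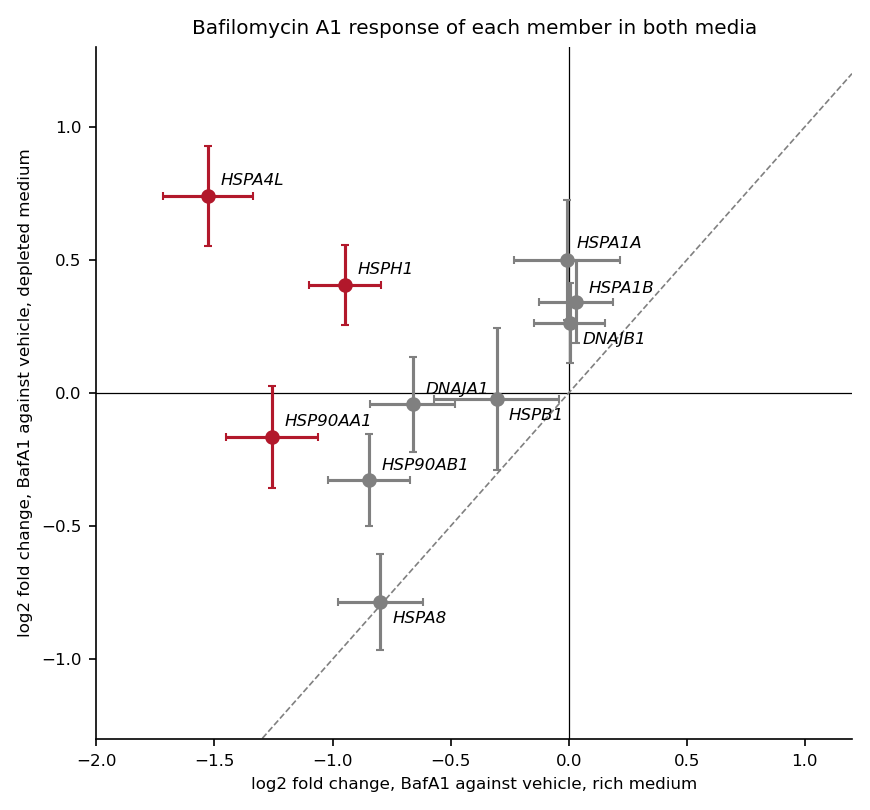
Log2 fold change with bafilomycin A1 in depleted medium (vertical) against that in rich medium (horizontal) for each of the 10 genes, with standard errors as bars and the line of equal response dashed. Red points are the 3 genes whose responses differed between media; HSPA4L sits at -1.53 and 0.74, while HSPA8 lies on the line at -0.80 and -0.79.

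HSF1, the stress-responsive transcription factor of the heat shock genes, passed the test in 1 comparison at the mRNA level. It measured 47.4 ± 8.88 CPM in rich medium with vehicle and 68.7 ± 5.53 CPM with bafilomycin (SD, n = 3), a rise of 0.53 (SE 0.16, adjusted p = 0.0409). That call was lost in the 6 rich libraries alone (0.179), without both doubtful libraries (0.0932) and without 5 of the 6 single libraries (0.0533 to 0.125). HSF2, a related factor, was not called by edgeR in the 5 tests (adjusted p from 0.0882 to 0.556), but its result varied with the setting. DESeq2 called HSF2 lower with bafilomycin in rich medium (-0.50, adjusted p = 0.0369) and higher in the interaction (0.70, adjusted p = 0.0497). Without replicate 2 of rich vehicle, edgeR called HSF2 lower with bafilomycin in rich medium (-0.63, adjusted p = 0.0229) and with depletion under vehicle (-0.51, adjusted p = 0.0307), and higher in the interaction (0.81, adjusted p = 0.035).

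HSPA6, an HSP70 gene induced strongly by heat, measured 0, 0.531 and 0.367 CPM in rich medium with vehicle and 0.182, 0.328 and 6.91 CPM with bafilomycin. In depleted medium it measured 6.26, 10.5 and 10.5 CPM with vehicle and 10.4, 14.6 and 12.5 CPM with bafilomycin. It was called higher with depletion under vehicle (log2 4.66, SE 1.27, adjusted p = 0.0196), a fitted value from at most 20 reads in any rich vehicle library, and it was lost without replicate 2 (0.0524) or 3 (0.0619) of rich vehicle. The high value in rich bafilomycin came from replicate 3, the library that stood apart. Without it, the response to bafilomycin in rich medium turned from 2.76 to -0.47, uncalled both times, and depletion under bafilomycin was called (log2 5.58, adjusted p = 1.83e-05). With no low-count filter the rich response of 2.76 was called (adjusted p = 1.42e-11), although the rich groups overlap.

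The counts of the partner lists are read against the shares of all genes called: 4.78% lower and 6.15% higher for bafilomycin in rich medium, 15.4% and 15.5% for depletion under vehicle, 5.91% and 5.5% for bafilomycin in depleted medium, and 13.6% and 10.5% for depletion under bafilomycin. The medians of all genes in these comparisons were 0.02, 0.04, -0.03 and 0.01 on the log2 scale.

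Of 19 HSP90 cochaperones tested, bafilomycin in rich medium lowered 6 and raised 1, and depletion under vehicle lowered 13 and raised 1. The lowered genes were 31.6% and 68.4% of the list, against 4.78% and 15.4% of all genes, while the 1 raised gene was 5.26% of it, against 6.15% and 15.5%. Without both doubtful libraries these counts were 3 lower and 2 higher, and 14 lower and 2 higher. FKBP4, an immunophilin that links HSP90 to steroid receptors, fell by 1.14 (adjusted p = 0.00266) and 1.98 (adjusted p = 2.15e-05) on the log2 scale in the 2 comparisons. CHORDC1, a CHORD-domain HSP90 partner, fell by 1.24 (adjusted p = 0.000968) with bafilomycin in rich medium. STIP1, the HSP70 to HSP90 adaptor, fell by 0.85 (adjusted p = 0.00451) and 1.23 (adjusted p = 8.97e-05), and FKBP5 fell by 1.66 with depletion under vehicle (adjusted p = 8.49e-05). Of the 19, bafilomycin in depleted medium raised 2 (10.5%, against 5.5% of all genes), FNIP1 (0.55, adjusted p = 0.0246) and FNIP2 (0.64, adjusted p = 0.0425), and both calls were lost without any 1 of the 6 libraries. Under bafilomycin, depletion lowered 7 (36.8%, against 13.6% of all genes) and raised 2 (10.5%, the share of all genes), with NUDC at -0.93 (adjusted p = 0.00155) and PPP5C at -0.79 (adjusted p = 0.0046) among the 7, and from 3 to 8 were lower without single libraries. The median log2 fold change of the 19 was -0.39, -0.92, 0.17 and -0.39 over the 4 comparisons in this order. In the interaction CHORDC1 (1.44, adjusted p = 0.00601), FKBP4 (1.31, adjusted p = 0.0137) and AHSA1 (1.15, adjusted p = 0.031), the activator of the HSP90 ATPase, were called higher, 3 of 19 against 2.35% of all genes. The AHSA1 call was lost without 6 of the 12 single libraries, among them replicate 3 of rich bafilomycin (0.98, adjusted p = 0.0689).

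Of 17 HSP70 cochaperones and exchange factors, bafilomycin in rich medium lowered 2, BAG2, which inhibits the ubiquitin ligase CHIP, and DNAJC2, a ribosome-associated J protein, which is 11.8% of the list against 4.78% of all genes. BAG2 fell by 0.88 (adjusted p = 0.00611) and DNAJC2 by 0.53 (adjusted p = 0.0268), and both calls were lost without both doubtful libraries (0.0543 and 0.0524). DNAJC2 was also lost without any 1 of the 3 rich bafilomycin libraries. Depletion under vehicle lowered 4 (23.5%, against 15.4% of all genes, and 3 to 6 genes without single libraries), with BAG2 at -1.09 (adjusted p = 0.000412). With bafilomycin in depleted medium 4 were raised (23.5%, against 5.5% of all genes), among them the J-domain genes DNAJB4 (0.96, adjusted p = 0.0123) and DNAJB5 (0.83, adjusted p = 0.014) and the exchange factor BAG5 (0.68, adjusted p = 0.0146). That count ran from 0 to 3 without single libraries and was 6 without both doubtful libraries. Depletion under bafilomycin raised 2, DNAJB4 (1.21, adjusted p = 0.00142) and DNAJC2 (0.71, adjusted p = 0.00213), and this share of 11.8% was near the 10.5% of all genes. The median of the 17 was -0.19, -0.23, 0.14 and 0.01 in the 4 comparisons.

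HSPA4, the other HSP110 gene of the cytosol, fell by 0.62 with bafilomycin in rich medium (adjusted p = 0.037) and by 0.80 with depletion under vehicle (adjusted p = 0.00369). The former call was lost without both doubtful libraries (log2 -0.34, adjusted p = 0.283). The responses of HSPA4 to bafilomycin differed between media by 1.02 (adjusted p = 0.0292), a call lost without both doubtful libraries (0.73, 0.0778) and without 6 of the 12 single libraries.

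For the TRiC chaperonin, the ring complex that folds actin and tubulin, bafilomycin in rich medium lowered 7 of its 8 subunits and depletion under vehicle lowered 8 of 8, against 4.78% and 15.4% of all genes. The former count was 3 without both doubtful libraries and 4 to 8 without single libraries, and the latter was 8 in all of these. CCT5 fell by 1.04 (adjusted p = 0.0029) and 1.43 (adjusted p = 7.82e-05), and CCT2 by 0.86 (adjusted p = 0.00457) and 1.07 (adjusted p = 0.000236). Bafilomycin in depleted medium changed 0 of 8 by edgeR, by DESeq2 and at an unadjusted p under 0.05. Depletion under bafilomycin lowered 2, CCT5 (-0.76, adjusted p = 0.00691) and CCT7 (-0.74, adjusted p = 0.00883), and the CCT7 call was lost without 2 of the 6 libraries (0.0502 and 0.0587). The median of the 8 was -0.71, -1.03, -0.10 and -0.33 in the 4 comparisons.

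Of 12 mitochondrial chaperones and proteases, bafilomycin in rich medium lowered 2, the chaperonins HSPE1 (-1.10, adjusted p = 0.00793) and HSPD1 (-0.69, adjusted p = 0.0246), and raised 1, the protease LONP1 (0.53, adjusted p = 0.0426). All 3 of these calls were lost without both doubtful libraries. The share lowered was 16.7%, against 4.78% of all genes, and the share raised, 8.33%, was near the 6.15% of all genes. Depletion under vehicle lowered 5 of the 12 (41.7%, against 15.4%) and raised 1 (8.33%, below the 15.5% of all genes), with HSPE1 at -1.91 (adjusted p = 6.73e-05). For bafilomycin in depleted medium edgeR called 0 of the 12, DESeq2 called 1 higher, and 3 were higher and 1 lower at an unadjusted p under 0.05. Depletion under bafilomycin raised 2 and lowered 2 (16.7% each, against 10.5% and 13.6%), or 5 and 4 without both doubtful libraries. The median of the 12 was -0.12 with bafilomycin in rich medium and -0.31 with depletion under vehicle.

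Of 16 chaperones of the endoplasmic reticulum, depletion under bafilomycin raised 9 (56.3%, against 10.5% of all genes), and 6 to 9 without single libraries. Depletion under vehicle raised 4 (25%, against 15.5%), and 3 to 5 without single libraries. Bafilomycin in rich medium raised 1, a share of 6.25%, near the 6.15% of all genes. The median of the 16 was 0.74, 0.39 and -0.20 in this order. In these 3 comparisons 0 were lower by edgeR, by DESeq2 and at an unadjusted p under 0.05. For bafilomycin in depleted medium edgeR called 0 of the 16, DESeq2 called 2 higher, and 4 were higher and 1 lower at an unadjusted p under 0.05. DNAJB9, an endoplasmic reticulum J-domain cofactor, rose by 1.98 with depletion under vehicle (adjusted p = 7.93e-05) and by 1.56 with depletion under bafilomycin (adjusted p = 0.000484). Its rise of 1.05 with bafilomycin in rich medium (adjusted p = 0.0146) was lost without replicate 3 of rich bafilomycin (0.69, adjusted p = 0.0769), without the shallow library (0.055) and without both (0.58, 0.158). HSPA5, the HSP70 of that compartment (BiP), rose by 1.60 with depletion under bafilomycin (adjusted p = 0.000959). The lists were compared with the 10 genes by their counts alone, and no test of a list was run.

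Of 14 other known HSF1 targets, bafilomycin in rich medium lowered 1, and depletion under vehicle lowered 5 and raised 2. The 1 lowered (7.14%) was near the 4.78% of all genes and the 2 raised (14.3%) were near 15.5%, while the 5 lowered (35.7%) compare with 15.4%. Without single libraries these counts ran from 0 to 2 lowered with bafilomycin, and from 3 to 6 lowered and 1 to 3 raised with depletion. With bafilomycin in depleted medium 3 were raised (21.4%, against 5.5%) and 1 lowered (7.14%, against 5.91%). The raised count was 1 to 3 without single libraries and 5 without both doubtful libraries. JMJD6, a lysyl hydroxylase, rose by 1.59 there (adjusted p = 0.000126) and kept its call without any single library. DEDD2, a death effector domain protein, rose by 1.04 (adjusted p = 0.0119), and CLU, the extracellular chaperone clusterin, fell by 1.16 (adjusted p = 0.0364), but each lost its call without 3 of the 6 libraries. Depletion under bafilomycin raised 4 of the 14 and lowered 4 (28.6% each, against 10.5% and 13.6% of all genes). The responses of JMJD6 to bafilomycin in the 2 media differed by 1.52 (adjusted p = 0.00495).

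Across the 12 libraries, the 10 genes followed a few shared patterns, given here as descriptions because libraries of a group share their treatment. With each gene on a log2 CPM scale, HSP90AA1 was most like DNAJA1 (Pearson r 0.974), HSPA4L most like HSPH1 (0.956) and HSP90AB1 most like HSPA8 (0.928). HSPB1 was most like DNAJA1 (0.873). HSPA1A and HSPA1B, taken as 1, were most like DNAJB1, at only 0.352, and were least like HSPA8 (-0.69). The genes closest to the mean scaled profile of the 10, among 11345 genes with at least 5 CPM on average, were POLR1G (0.979), HCCS (0.979), TRA2B (0.972), DKC1 (0.970), ACTR5 (0.969), FKBP4 (0.969), FARSB (0.966), LAS1L (0.965), EGLN3 (0.961) and MRTO4 (0.961), each over 12 libraries. That profile, with HSPA1A and HSPA1B taken as 1, had an r of only -0.30 with this pair and 0.28 with DNAJB1. With the other members r ran from 0.77 (HSPA8) to 0.95 (HSPH1), so the profile describes these members and not all 10.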

How the data were processed

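RNA from 12 Caco-2 samples was sequenced after ribosomal RNA depletion with a stranded kit, per the labels' protocols. Per the file headers, the authors deposited, for each library, estimated counts, TPM (a share of transcripts, corrected for their length) and lengths of each gene, and a series-wide table of whole counts. The submitters' processing notes name DRAGEN and GRCh38. Their roles are not stated, and the sources used here give neither the annotation release nor the strand setting. Of the estimated counts, 5.08% were not whole; they were rounded. The series-wide table, used as an alternative, lists the 13518 genes that reach 10 reads in every library.

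Genes were filtered with filterByExpr (minimum count 10, minimum total 15), scaled by TMM and tested with edgeR 4.0.16 (R 4.3.3, robust quasi-likelihood F test, 4 group means, 8 residual degrees of freedom), with Benjamini-Hochberg adjustment over all 18047 genes. The fit was tested on simulated data, but no outcome of that test is given here, so it lends no weight to the results. CPM were used between libraries, and deposited TPM within a library or as a check on CPM levels. Total reads per library ran from 12969814 to 51649213, and the standard errors also rest on the spread between libraries of a group. Gene coordinates and promoters came from RefSeq (GRCh38.p14), in which 51557 of 54553 gene names matched; shared words and overlaps came from GENCODE 29 transcripts.

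The 10 genes, the partner lists, the tests and the alternatives were chosen with earlier results of these data known, so patterns already seen are not independent support. Named in every comparison were the 10 genes, HSF1, HSF2 and HSPA6. Named from each list were up to 3 called genes per comparison, those with the smallest adjusted p and a mean CPM of 1 or more, and, for likeness, the 10 genes of at least 5 CPM with the highest Pearson r. Alternatives were DESeq2 1.42.0, other scalings, no filter, only the libraries compared, a replicate block, the series-wide table, a test against a minimum fold of 1.5, a fit that drops small RNA, ribosomal and mitochondrial genes, HSPA1A and HSPA1B summed, each library left out, and both doubtful libraries left out.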

Additional observations from a re-analysis of the deposited data

Results flagged for a closer look

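Among the 114 genes tested from the 10 chaperones and the partner lists together, 13 had a higher response to bafilomycin A1 in depleted medium than in rich medium by the interaction test of edgeR, and 0 a lower one. In the list of other HSP70 and HSP110 genes 1 was lower by DESeq2, 1 at an unadjusted p under 0.05, and 1 by edgeR without both doubtful libraries. Without single libraries edgeR called 0 to 1 lower in that list and 0 to 1 among the HSF regulators. The main counts are 11.4% and 0%, against 2.35% and 3.83% of all genes, and the lists were chosen with earlier results of these data known. Among the 10 chaperones those called higher were HSPA4L, with a difference of 2.27, HSPH1 with 1.35 and HSP90AA1 with 1.09. The HSP90 cochaperones CHORDC1, FKBP4 and AHSA1 differed by 1.44, 1.31 and 1.15. The HSP70 cochaperones DNAJC2 and BAG2 differed by 0.94 and 0.92, and the HSP110 gene HSPA4 by 1.02. The TRiC subunits TCP1 and CCT6A differed by 1.12 and 0.83. The HSF1 targets JMJD6 and UBQLN1 differed by 1.52 and 0.91. Without both doubtful libraries (replicate 1 of rich vehicle and replicate 3 of rich bafilomycin) the calls of HSP90AA1, AHSA1, BAG2, HSPA4, TCP1 and CCT6A were lost. BAG2 was lost without 11 of the 12 single libraries, CCT6A without 10, TCP1, HSPA4 and AHSA1 without 6 each, HSP90AA1 without 5 and DNAJC2 without 1. The other 6 kept their calls without any single library.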

How the results depend on the processing

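All alternatives were planned. Of the values for single genes under an alternative, 2258 kept direction and side of the threshold, 272 lost a call, 21 gained one and 41 changed sign, the last all uncalled. The main count of the 10 genes lowered by bafilomycin in rich medium, 6, was 3 in the 6 libraries alone, 2 against a fold of 1.5, 3 without both doubtful libraries and 4 to 6 without single libraries. In depleted medium bafilomycin raised 1: 3 in the 6 libraries alone, 2 with the replicate block, 0 against a fold of 1.5, 3 without both doubtful libraries, 0 to 1 without single libraries; it lowered 1, which was 0 against a fold of 1.5 and 0 to 1 without single libraries. Depletion under bafilomycin raised 1: 2 with library totals, 3 in the 6 libraries alone, 2 with the replicate block, 0 against a fold of 1.5, 0 with HSPA1A and HSPA1B summed, 2 without both doubtful libraries, 0 in each run without a single library. It lowered 4, which was 0 against a fold of 1.5 and 2 to 4 without single libraries. Fewer samples or a stricter null apply in these runs by construction; for the other settings the cause was not tested.

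Of 18 same-number library pairs, deviations from group means correlated at -0.081 to 0.294 (median 0.072, other pairs -0.036). These values do not settle whether the numbers pair libraries, and the main fit did not pair them. With the replicate block HSPA1A gained calls for bafilomycin in depleted medium (0.52, adjusted p = 0.0367) and for depletion under bafilomycin (0.55, 0.0164). All-gene calls rose with the block in each comparison. They went from 5577 to 6504 for depletion under vehicle and from 4352 to 5319 for depletion under bafilomycin. For bafilomycin they went from 1971 to 2832 in rich medium and from 2058 to 3014 in depleted medium. For the interaction they went from 1116 to 1969.

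Uncalled values near 0 changed sign. For bafilomycin in rich medium, HSPA1A gave 0.044 with library totals, 0.045 with the replicate block, 0.0095 in the series-wide table, 0.014 summed with HSPA1B, and -0.31 to 0.20 over the runs that leave out 1 library or both doubtful ones. Over such runs HSPA1B gave -0.11 to 0.12, DNAJB1 -0.088 to 0.13 and HSPA6 -0.79 to 3.32. DNAJB1 also gave -0.014 by DESeq2 and with DESeq2 size factors, -0.017 in the 6 libraries alone and -0.014 without mitochondrial, ribosomal and small RNA genes. For depletion under vehicle, HSPA1A gave -0.20 to 0.26 over such runs. For bafilomycin in depleted medium DNAJA1 gave -0.20 to 0.042 and HSPB1 -0.17 to 0.089, and HSPB1 gave 0.0075 with library totals. For depletion under bafilomycin HSPH1 gave -0.00304 to 0.15. In the interaction HSPA8 gave -0.012 in the series-wide table and -0.081 to 0.11 over such runs, and HSPA6 -2.86 to 1.25, with 0.93 without replicate 3 of rich bafilomycin. HSPA6 was also called with no low-count filter for bafilomycin in rich medium (2.76, adjusted p = 1.42e-11), depletion under bafilomycin (2.34, 1.56e-12) and the interaction (-2.30, 6.63e-05).

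Library totals in place of TMM moved the median of all genes by 0.10 in both depletion comparisons, and the share of calls that were higher from 50.2% to 60.8% under vehicle and from 43.5% to 54.5% under bafilomycin. All-gene calls ran from 213 (minimum fold) to 2990 (DESeq2) around 1971 for bafilomycin in rich medium, 262 to 4259 (6 libraries) around 2058 for bafilomycin in depleted medium, 1890 to 6504 around 5577 and 1104 to 6021 around 4352 for the depletion comparisons, and 139 to 2093 around 1116 for the interaction. Group levels relative to rich vehicle on the TPM scale were within replicate spread of the CPM values in 17 of 30 cases. Statements above that group levels of single genes lie apart refer to CPM, and some did not hold by TPM. Among these were the place of both treatments in HSP90AB1 and, with HSPA1A at 64.5 to 103 TPM against 37.9 to 82.1 in rich vehicle, in HSPA1A. Others were the place of both treatments in HSPA1B, HSPA4L and HSPB1, and that of rich bafilomycin above both treatments in HSP90AA1. Depth limits HSPA6, with at most 20 reads in any rich vehicle library, more than the 10 genes.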

Other observations

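Among the other HSP70 and HSP110 genes, HSPA2, an HSP70 abundant in testis, fell by 1.65 on the log2 scale with depletion under vehicle (adjusted p = 0.000409) and by 1.66 with depletion under bafilomycin (adjusted p = 0.000629). Of 6 tested in that list, depletion under vehicle lowered 3 (15.4% of all genes were lower) and raised 2 (15.5% of all genes were higher), and the raised count ran from 0 to 2 without single libraries. Of 3 genes tested from the small heat shock list, which goes by gene symbol, HSPB11 fell with bafilomycin in rich medium (-1.04, adjusted p = 0.022), depletion under vehicle (-1.38, adjusted p = 0.00138) and depletion under bafilomycin (-0.99, adjusted p = 0.0142). Whether HSPB11 acts as a chaperone was not tested, so its falls do not stand for the small heat shock proteins.

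Of 9 genes for HSF factors and their regulators, depletion under vehicle lowered 2 and raised 1 (22.2% and 11.1%, against 15.4% and 15.5% of all genes). Depletion under bafilomycin lowered 1 and raised 1 (11.1% each), near the 13.6% and 10.5% of all genes. HSBP1, which binds HSF1 trimers, fell by 1.05 with depletion under vehicle (adjusted p = 0.00383) and by 1.03 with depletion under bafilomycin (adjusted p = 0.00557). With depletion under vehicle DAXX fell by 0.57 (adjusted p = 0.0119), a call lost without 1 library, and HSBP1L1 rose by 0.95 (adjusted p = 0.0182), a call lost without 4 of the 6 single libraries (0.052 to 0.0842). SIRT1, a deacetylase that acts on HSF1, rose by 0.77 with bafilomycin in depleted medium (adjusted p = 0.014) and by 1.11 with depletion under bafilomycin (adjusted p = 0.000683). In the mitochondrion, the exchange factor GRPEL1 fell by 1.14 (adjusted p = 0.000701) and the HSP90 paralogue TRAP1 by 1.01 (adjusted p = 0.000776) with depletion under vehicle. In the endoplasmic reticulum, DNAJC3 rose by 0.93 (adjusted p = 0.00215) and HYOU1 by 1.31 (adjusted p = 0.00484) in that comparison. Without both doubtful libraries or without 3 of the 6 single libraries, the HSPB11 call for bafilomycin in rich medium was lost. Its call under bafilomycin, and the SIRT1 call in depleted medium, were each lost without 2 of 6. All adjusted p-values are from edgeR's quasi-likelihood test.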
